A study of Mus musculus with 2 samples.

Results

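The sites described here are the strongest accessible sites away from annotated promoters that 2 DNase-seq libraries of mouse lung had in common. In DNase-seq, the enzyme DNase I is let into nuclei, where it cuts DNA that is not tightly wrapped, and sequencing the ends of the cuts shows which chromatin was open. A peak counted as distal when it lay on an autosome and more than 1 kb from every GENCODE transcript 5′ end. The sites were chosen by the authors' peak score: the top 5% of distal peaks were taken in each library, those that overlapped such a peak of the other library by at least 1 bp were kept, and overlapping ones were merged. This left 1924 sites, from 60611 distal peaks of 94786 in replicate 1 and 48842 of 77403 in replicate 2. They are compared below with the 40754 other distal sites that had a peak in both libraries.

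Both libraries came from lungs of B6CASTF1/J males, first-generation offspring of C57BL/6J and CAST/EiJ, at 14 days of age. Replicate 2 was labelled as a pool of 3 males, replicate 1 carried no such label, and both pointed to 1 donor record, so whether they share animals was not known. There was 1 group and no treatment, so nothing could be compared between conditions. Whole lung holds epithelial, endothelial, mesenchymal and immune cells, and in such bulk tissue more cells with an open site and more cutting per cell cannot be told apart. The label was checked on promoters: all 12 lung marker genes examined had a promoter peak in replicate 1 and 11 in replicate 2 (without surfactant protein gene Sftpd), against 0 of 3 liver genes and 0 of 2 heart muscle genes in either library. Of 3 blood genes, Spi1 alone had one, and of 2 brain genes, Snap25 alone.

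Distal open sites are usually enhancers, insulators or unannotated promoters. Insulators are bound by CTCF, a zinc finger protein that halts loop-extruding cohesin and leaves a wide protected stretch in DNase data. tRNA genes are transcribed by RNA polymerase III from elements inside the gene, and their chromatin is open in most tissues. A footprint is a short stretch within an open site where cutting is low, as under a bound protein.

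Sites of 4 kinds are shown first in the mm10 reference sequence, forward strand, because the results turn on what these sequences hold: CTCF sites, tRNA genes, sites with another consensus, and a strong site with none of the consensus sequences searched near its centre. A site is numbered by its rank among the 1924, from 1 for the highest mean percentile of the score in the 2 libraries. The reference is C57BL/6J, so alleles of the CAST/EiJ parent are not shown. Capitals mark the CTCF consensus in sites 50 (chr19:5529421-5529620, in an intron), 61 (chr15:101145501-101145720, between genes, 8011 bp from the start of Acvrl1) and 74 (chr11:62756841-62757100, in an intron of Zfp286), the highest by the rule given with the methods. Site 50 held the consensus at both of the capitalised places. Site 74 lay 21 bp from a RefSeq transcript 5′ end and is classed with such sites below.
site 50: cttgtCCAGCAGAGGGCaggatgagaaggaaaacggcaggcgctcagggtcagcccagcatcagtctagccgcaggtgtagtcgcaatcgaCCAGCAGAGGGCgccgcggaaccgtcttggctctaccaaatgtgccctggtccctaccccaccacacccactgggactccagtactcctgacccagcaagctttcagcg
site 61: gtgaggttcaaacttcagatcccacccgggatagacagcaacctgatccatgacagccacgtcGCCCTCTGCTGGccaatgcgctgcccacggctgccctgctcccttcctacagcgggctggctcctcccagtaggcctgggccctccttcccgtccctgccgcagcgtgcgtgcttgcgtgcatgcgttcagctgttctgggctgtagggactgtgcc
site 74: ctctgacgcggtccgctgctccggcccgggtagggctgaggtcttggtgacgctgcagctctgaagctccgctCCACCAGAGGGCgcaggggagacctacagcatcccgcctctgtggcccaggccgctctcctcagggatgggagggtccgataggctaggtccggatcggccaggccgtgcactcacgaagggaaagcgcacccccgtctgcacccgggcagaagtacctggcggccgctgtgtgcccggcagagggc

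Capitals mark the whole tRNA gene in site 63 (chr11:107012661-107012960, tRNA-Arg with anticodon CCG, forward strand) and in site 66 (chr11:69063021-69063200, tRNA-Ser with anticodon GCT, reverse strand). Both lay between protein-coding genes.
site 63: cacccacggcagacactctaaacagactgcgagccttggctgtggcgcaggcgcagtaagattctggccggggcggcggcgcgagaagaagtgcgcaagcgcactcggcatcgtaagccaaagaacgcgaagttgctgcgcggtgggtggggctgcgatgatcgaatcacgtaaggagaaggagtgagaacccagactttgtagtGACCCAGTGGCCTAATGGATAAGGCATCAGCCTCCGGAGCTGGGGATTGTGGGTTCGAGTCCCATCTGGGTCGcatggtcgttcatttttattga
site 66: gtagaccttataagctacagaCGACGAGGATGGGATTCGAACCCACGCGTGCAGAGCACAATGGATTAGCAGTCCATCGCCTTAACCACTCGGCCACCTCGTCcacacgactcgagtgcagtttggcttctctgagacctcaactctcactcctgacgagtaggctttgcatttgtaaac

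For each of the next sites, 1 or 2 consensus sequences near the centre are capitalised and further ones are left unmarked, such as a CREB octamer and an E-box in site 12. They are site 12 (chr11:69096981-69097240, in an intron of the clock gene Per1, with the glucocorticoid receptor palindrome), site 20 (chr1:86434461-86434680, between genes, the CREB octamer TGACGTCA and the RFX palindrome) and site 22 (chr9:107612741-107612960, between genes, 3196 bp from the start of the G protein gene Gnai2, the CREB octamer).
site 12: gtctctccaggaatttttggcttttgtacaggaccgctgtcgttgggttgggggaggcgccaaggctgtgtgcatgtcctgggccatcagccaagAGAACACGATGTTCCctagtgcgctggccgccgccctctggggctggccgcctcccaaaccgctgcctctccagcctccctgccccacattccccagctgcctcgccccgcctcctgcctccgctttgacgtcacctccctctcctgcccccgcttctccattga
site 20: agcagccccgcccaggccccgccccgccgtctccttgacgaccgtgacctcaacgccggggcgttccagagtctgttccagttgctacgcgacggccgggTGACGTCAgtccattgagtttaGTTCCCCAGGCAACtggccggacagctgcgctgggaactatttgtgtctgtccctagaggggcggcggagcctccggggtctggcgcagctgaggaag
site 22: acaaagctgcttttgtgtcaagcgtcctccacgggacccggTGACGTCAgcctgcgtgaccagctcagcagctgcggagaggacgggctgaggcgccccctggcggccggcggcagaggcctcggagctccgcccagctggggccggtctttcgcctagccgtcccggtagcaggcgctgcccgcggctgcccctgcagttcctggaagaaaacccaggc

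No consensus of the 34 searched was found within 75 bp of the centre of site 6 (chr1:86525281-86525520, 1325 bp from the nearest 5′ end of a Ptma transcript in the annotation). Outside that window, its printed sequence holds the shorter NFI consensus CTTGGCA near its start and the YY1 consensus AANATGGC, on the reverse strand, at its end.
site 6: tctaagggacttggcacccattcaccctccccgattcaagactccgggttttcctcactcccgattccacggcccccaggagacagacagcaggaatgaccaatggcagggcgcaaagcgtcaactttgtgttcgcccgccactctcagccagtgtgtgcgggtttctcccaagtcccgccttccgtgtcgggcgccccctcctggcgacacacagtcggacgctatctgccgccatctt

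The score threshold was 5.33 in replicate 1, which 3031 peaks reached, and 4.28 in replicate 2, which 2452 reached. These values chose the sites and carry no test. The lowest scores of kept sites were 5.34, 5.35 and 5.35 in replicate 1 and 4.28 for each of 3 in replicate 2, and the distal peaks next below the thresholds had 5.32 and 4.27. Kept sites had a median score of 7.88 (range 5.34 to 50.4) in replicate 1 and 6.11 (4.28 to 32.9) in replicate 2. The other shared distal sites had medians of 1.33 and 1.22. Of the top peaks, 1926 of 3031 (63.5%) in replicate 1 and 1928 of 2452 (78.6%) in replicate 2 overlapped a top peak of the other library. Most of the remainder, 1095 and 522 peaks, overlapped a distal peak below the threshold there, whose median percentile was 91.9 and 92.8, and 2 and 1 overlapped no peak at all. Across the 1924 sites the 2 scores had a Spearman correlation of 0.608 and a Pearson correlation of 0.727 on the log2 scale, given as a description, since the points share their libraries and were chosen for being high in both.

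**Figure D1:**
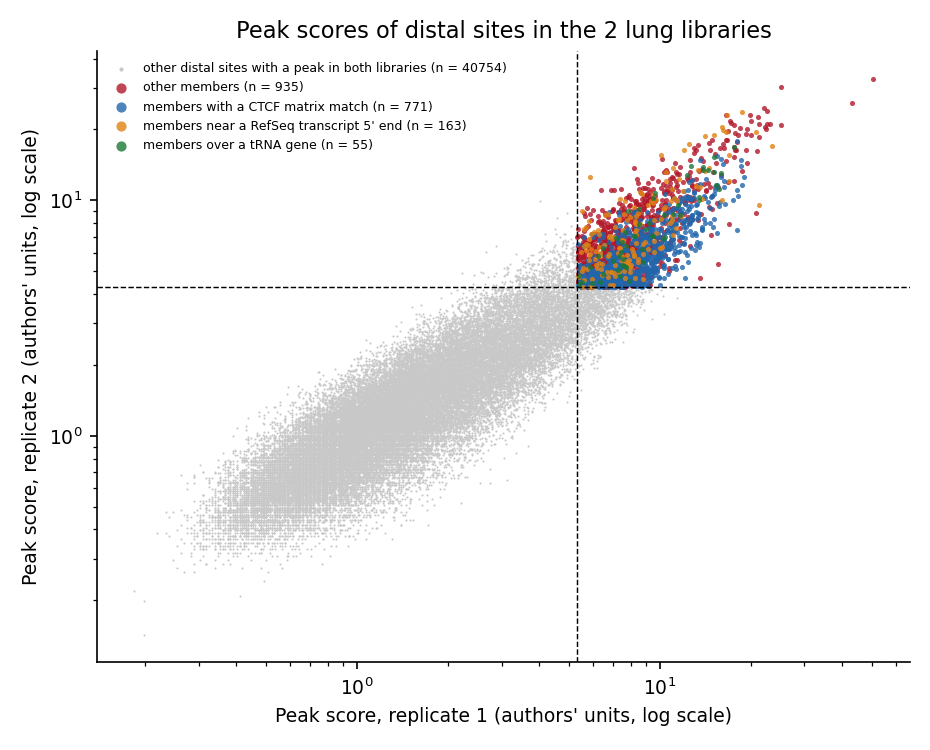
Peak score of each distal site with a peak in both libraries, replicate 1 on the horizontal and replicate 2 on the vertical axis, both on log scales in the authors' units. Dashed lines are the thresholds of 5.33 and 4.28, grey points are the 40754 other shared distal sites, and the 1924 coloured points are the strongest sites by class (771 with a CTCF match, 163 near a RefSeq transcript 5′ end, 55 over a tRNA gene and 935 with none of these). Grey points to the right of or above a line passed it in 1 library only.

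The strongest sites were as wide as the others but differed in sequence and position. They had a median width of 200 bp (120 to 580 bp), the same median as the other shared distal sites, and the centres of the 2 libraries' peaks lay a median of 10.0 bp apart. They were richer in G and C, with a median of 57.0% within 75 bp of the centre against 52.3%, and held a median of 5 CpG dinucleotides against 2. They lay nearer to genes, at a median of 10082 bp from the closest protein-coding transcript 5′ end against 20536 bp. Sites between genes made up 53.1% (exact binomial 95% interval 50.8 to 55.3%, 1021 of 1924) against 43.6% (43.1 to 44.0%) of the other sites, and sites in introns 38.4% (36.2 to 40.6%) against 50.3% (49.8 to 50.8%). Exons outside coding sequence held 6.70% against 4.06%, and coding exons 1.87% against 2.10%, the last with overlapping intervals. All intervals here cover the counting of sites only, and neighbouring sites are not independent of each other.

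The 12 highest sites held no CTCF matrix match, no tRNA gene and no RefSeq transcript 5′ end within 1 kb. Site 1 (chr9:123461901-123462100) lay within Lars2, the mitochondrial leucyl-tRNA synthetase gene, in exon sequence outside any coding sequence, and scored 50.4 in replicate 1 and 32.9 in replicate 2, the highest of all distal peaks in both. Site 2 (chr15:99735641-99736060), within the ceramide synthase gene Cers5 in exon sequence outside coding sequence, scored 25.1 and 30.3. Its sequence stood out by having 0 CpG, and the 420 bp held only 2 footprints in each library. Site 3 (chr6:49236421-49236620), 21564 bp from the start of the RNA-binding protein gene Igf2bp3, scored 43.1 and 25.9.

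Sequence copies bear on 4 of these 12. Aligned to the whole assembly, site 1 had 7 other places with at least 90% identity over at least 90 bp, site 3 had 5, site 7 (chr13:112578161-112578320, in an intron of the cytokine receptor gene Il31ra) had 16 and site 9 (chr3:5860361-5860530, 109640 bp from the nearest protein-coding start) had 18. Sites 1 and 3 were both like site 193, whose nearest protein-coding start is that of Gphn, at 97.8% identity over 135 bp and 99.4% over 168 bp. Site 1005, nearest to Hic2, was like site 193 as well (97.8% over 179 bp), and sites 7 and 9 were like each other at 97.5% over 160 bp. How reads from such copies were placed is not given in the sources used here, and their part in the scores was not tested. Over all 1924 sites, 7.85% had such a place elsewhere, 23 of these over tRNA genes, and in 11 the central 50 bp occurred more than once exactly, against 154 of the 40754 other sites. In the alignments every hit counted as a place, and sequences outside the assembled chromosomes were not left out. Such a sequence can hold the same locus again, so the places may outnumber distinct copies. Aligned to the mitochondrial genome, none of the 1924 gave a hit.

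The 8 others of the 12 had no similar place elsewhere. Site 4 (chr8:126666521-126666760) lay 72655 bp from the start of Irf2bp2, a corepressor gene, with scores of 22.6 and 23.9. Site 5 (chr8:121585461-121585700) lay 4780 bp from the start of Map1lc3b, which encodes an autophagosome protein, and scored 21.98 and 24.6. Site 6, printed above, scored 23.0 and 21.0. Site 10 (chr14:65343681-65344020), 14538 bp from Zfp395, scored 21.2 and 21.0 and held 7 footprints in each library. Site 11 (chr6:86472221-86472520), within C87436 in exon sequence outside coding sequence, scored 19.8 and 23.0, with the CREB octamer and 20 CpG. Site 12 in Per1, printed above with its glucocorticoid receptor palindrome, scored 22.3 and 20.4. These 8 ran from 44.4% to 74.8% G and C, the lowest being site 2.

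CTCF was the most frequent sequence feature. The CTCF consensus stood within 75 bp of the centre in 376 sites, 19.5% (17.8 to 21.4%), against 9.86% (9.57 to 10.2%) of the other shared distal sites and 0.234% of windows of the same length 1 kb to either side. A looser 20 bp matrix, learned from the other sites and not from these, matched 814, 42.3% (40.1 to 44.6%), against 22.4% (22.04 to 22.8%) and 1.35% of the side windows. At a stricter score, passed by 0.2% of side windows, 16.1% of the strongest sites matched. The share did not keep rising with score. Among the other sites it rose from 9.53% in the lowest class, under a mean percentile of 25, to 47.4% (45.6 to 49.2%) at or above the 90th percentile, which is above the share in the strongest sites. Among the 50 highest sites only 3 were classed as CTCF, among the 100 highest 16 and among the 200 highest 48, where classes were read in the order tRNA gene, RefSeq 5′ end, CTCF match. Site 33 held the consensus without a matrix match.

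**Figure D2:**
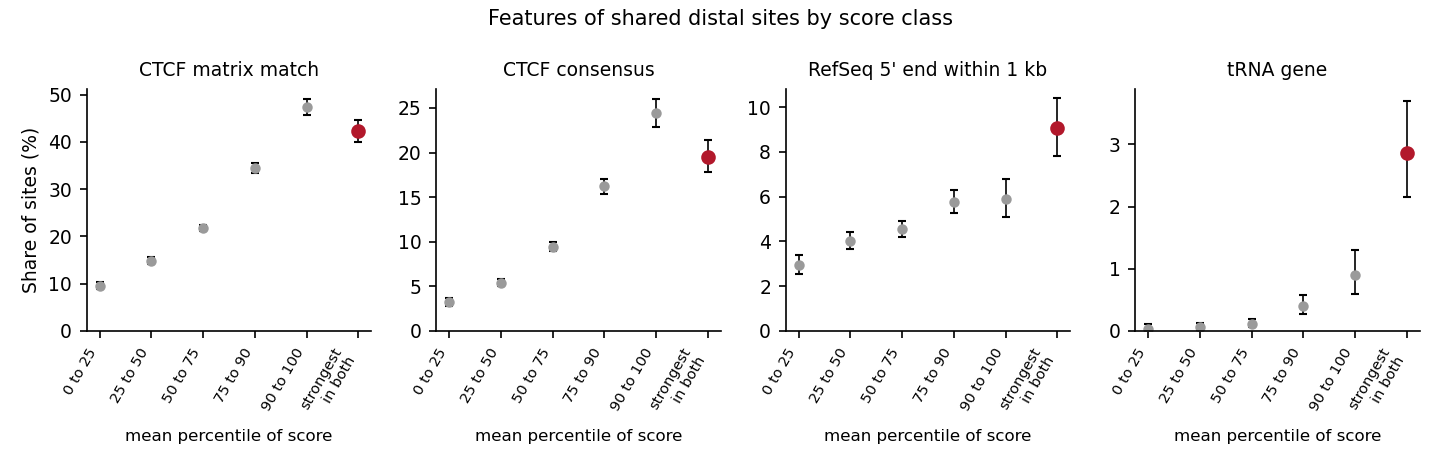
Share of shared distal sites with each of 4 features by class of mean score percentile (grey, sites outside the strongest set) and in the 1924 strongest sites (red), with exact binomial 95% intervals. The CTCF matrix share peaks at 47.4% in the class from 90 to 100 and is 42.3% in the strongest sites, while the tRNA share rises from 0.0312% to 2.86%. The class from 90 to 100 takes in sites above the threshold in 1 library only.

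The share with a CTCF match differed between the libraries' own lists. Of the 1105 top peaks of replicate 1 that overlapped no top peak of replicate 2, 74.3% (71.6 to 76.9%) had a matrix match. Of the 524 top peaks of replicate 2 that overlapped no top peak of replicate 1, 12.02% (9.36 to 15.1%) did. Taken from replicate 1 alone, the top 5% held 54.1% of peaks with a match, and from replicate 2 alone 35.6%, so the share of 42.3% depends on which libraries enter. With 1 library a side, this gap has no replicate check.

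The CTCF share also moved with G and C content. In sites under 50% G and C, 58.9% (52.1 to 65.5%, 129 of 219) had a matrix match against 29.2% of other sites of that content. Between 50 and 60% the shares were 50.4% (47.4 to 53.4%) and 19.7%, and from 60% upwards 22.3% (19.04 to 25.7%) and 12.2%. By the matrix, the strongest sites were thus above the others in each of these ranges, and the CTCF share fell with G and C in both sets. By the consensus, the shares were 32.0% against 12.2% under 50% and 24.0% against 9.08% between 50 and 60%. From 60% upwards the consensus had 7.42% (5.48 to 9.77%) against 5.56% (4.86 to 6.32%), with overlapping intervals.

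Footprints stood in all of the strongest sites, with or without a CTCF match, and lay over nearly all CTCF matches. They come from the same reads as the peak score that chose the sites, so these shares are descriptions only. All 1924 sites had a footprint in both libraries, which allows up to 0.192% without one (exact 95% interval), against 91.1% (90.8 to 91.4%) of the other shared distal sites. Each held a median of 4 footprints in either library (range 1 to 13). A median of 46.1% of a site's bases in replicate 1 and 38.9% in replicate 2 lay in footprints, against 18.9% and 15.6% in the other sites. Of the 814 matrix matches, 805 (98.9%) lay at least 50% within a footprint in replicate 1 and 807 (99.1%) in replicate 2, against 96.5% and 88.1% of the 9145 matches elsewhere. In the other sites the share with a footprint in both libraries moved with the score, from 67.5% under a mean percentile of 25 to 99.97% from 90 upwards, and the part of the score in these differences was not tested.

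Read base by base along the motif, the protected block was flanked by open gaps. At the centre of the match 98.5% and 99.1% of strong sites had a footprint in replicates 1 and 2, at 40 bp upstream 5.53% and 3.44%, and at 40 bp downstream 8.23% and 6.14%. The block was lopsided and reached further downstream: 15 bp downstream of the centre 94.3% and 91.5% were covered, and 15 bp upstream 43.7% and 54.2%. At 20 bp the order turned, with 52.5% and 58.8% covered upstream, and 33.3% and 30.8% downstream. A further protected stretch stood on each side beyond the gaps. In replicate 1 its coverage was highest 63 bp upstream (83.5%) and 67 bp downstream (89.9%), and in replicate 2 it was lower, highest 74 bp upstream (54.2%) and 69 bp downstream (69.7%). Matches in the other sites had lower flanking stretches in both libraries, with maxima of 43.9% upstream and 57.5% downstream in replicate 1 and 19.4% and 33.3% in replicate 2. The matches lay on the forward strand in 394 of 814 sites, and 81.4% had their centre within 25 bp of the site's centre.

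**Figure D3:**
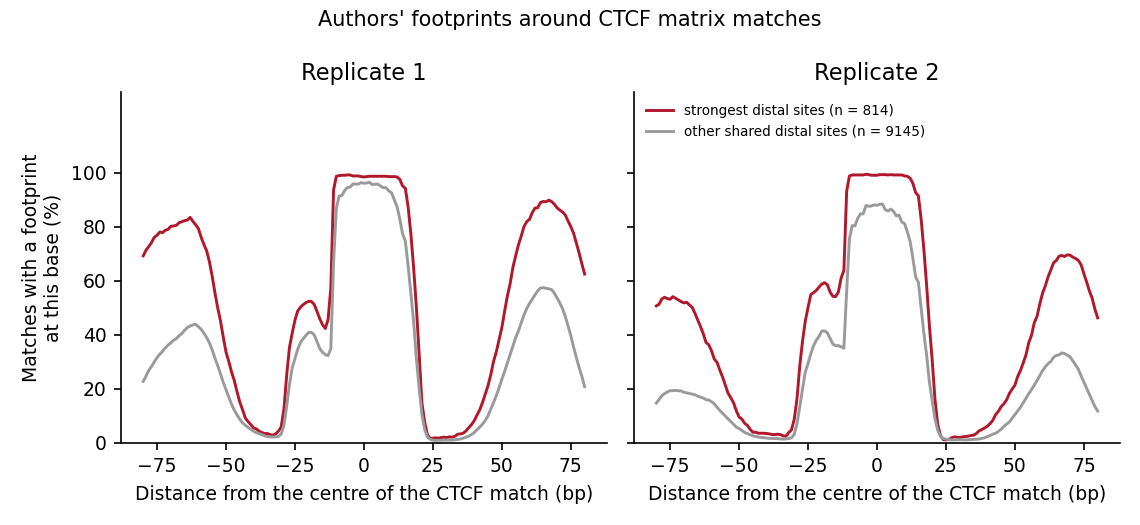
Share of CTCF matrix matches with one of the authors' footprints at each base, from 80 bp upstream to 80 bp downstream of the centre of the match, turned to the strand of the motif, in replicates 1 and 2. Red is the 814 matches in the strongest sites and grey the 9145 in the other shared distal sites. Both show the central block, gaps at 40 bp and a rise beyond them, which is lower in replicate 2.

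Consensus sequences of 7 other factors were more frequent than in the other distal sites. The palindrome of NRF1, a regulator of mitochondrial and housekeeping genes, stood in 45 sites, 2.34% (1.71 to 3.12%), against 0.255% of the other sites and 0.130% of side windows. The SP box CCCCGCCC stood in 148 sites, 7.69% (6.54 to 8.97%), against 2.48% and 1.72%. The CREB octamer TGACGTCA, the cAMP response element, stood in 24 sites, 1.25% (0.801 to 1.85%), against 0.407% and 0.0780%. The USF element GTCACGTG had 1.51% (1.01 to 2.16%) against 0.648% and 0.312%, and the NFY box CCAATCAG 1.66% (1.14 to 2.34%) against 0.643% and 0.520%. For ZNF143, 7 sites gave 0.364% (0.146 to 0.748%) against 0.0932%. For RFX, which serves ciliary and immune genes, 8 sites gave 0.416% (0.180 to 0.818%) against 0.150% (0.115 to 0.192%), with overlapping intervals. The glucocorticoid receptor palindrome, in 9 sites, was as frequent as elsewhere, at 0.468% (0.214 to 0.886%) against 0.437%, though above the 0.0520% of side windows.

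G and C content and RefSeq promoters moved with these matches. In sites of at least 60% G and C the SP box stood in 19.4% (16.3 to 22.7%) against 10.4% of the other sites of that content, and NRF1 in 4.52% (3.02 to 6.46%) against 1.21%. From 50 to 60% the SP box had 2.58% (1.72 to 3.71%) against 2.35%, with overlapping intervals, while NRF1 kept 1.57% (0.915 to 2.50%) against 0.230%. Of the 45 NRF1 sites, 8 lay within 1 kb of a RefSeq 5′ end and 7 over a tRNA gene, and of the 32 NFY sites 15 lay near a RefSeq 5′ end. Leaving out every site with a tRNA gene or RefSeq 5′ end left 1706, of which 1.93% held NRF1, 7.09% the SP box and 0.996% the NFY box.

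Other consensus sequences were less frequent than in the other sites or close to their level there. The GATA element AGATAAG stood in 13 sites, 0.676% (0.360 to 1.15%), against 1.81% of the other sites and 1.69% of side windows. The FOX element TGTTTAC, read by forkhead factors of lung epithelium and mesenchyme, had 1.56% (1.05 to 2.22%) against 3.35%, and the side windows had 1.56% as well. Elements of TEAD (2.49% against 4.05%), SOX (1.30% against 2.41%) and RUNX (2.23% against 3.56%) were less frequent too. So was the shorter NFI consensus, at 5.35% against 7.98%. The interferon factor element had 0.988% (0.596 to 1.54%) against 1.62%. The E-box CAGCTG, at 14.0% (12.5 to 15.6%) against 19.1%, was above the 7.98% of side windows but below the other sites, and HNF1 had no match in 1924 sites, which allows up to 0.192%. AP-1 (TGACTCA) stood in 4.37% (3.497 to 5.38%) against 5.21%, and NKX2 (CACTNNAG) in 12.1% (10.6 to 13.6%) against 13.6%, where the intervals of the 2 sets overlap. The repressor element ZEB (CAGGTG) was slightly above the other sites, at 13.1% (11.6 to 14.7%) against 11.3%, and near the 12.5% of side windows, while ETS had 5.77% (4.77 to 6.91%) against 5.07%, KLF 2.44% (1.80 to 3.24%) against 2.17% and HNF4 0.312% (0.115 to 0.678%) against 0.233%, with overlapping intervals for these 3. The strongest sites were richer in G and C, and the part of this in the lower shares was not tested. Consensus matches describe letters in the reference and do not show binding.

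**Figure D4:**
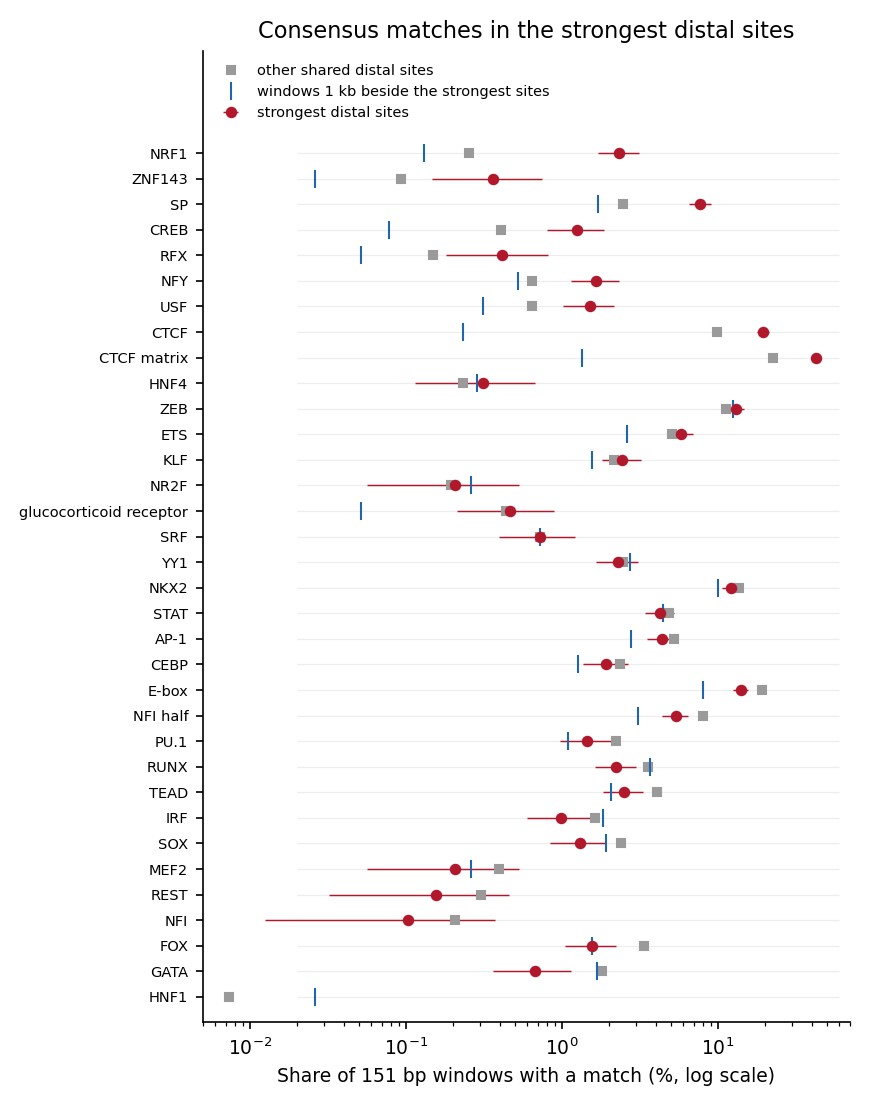
Share of windows reaching 75 bp to each side of the centre with a match to each consensus (log scale) in the strongest distal sites (red, exact binomial 95% intervals), the other shared distal sites (grey squares) and windows 1 kb beside the strongest sites (blue ticks), ordered by the ratio of red to grey. NRF1 is at the top with 2.34% against 0.255%, FOX and GATA are near the bottom, and shares of 0 are not drawn.

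The strongest sites were rich in tRNA genes. A RefSeq tRNA gene lay in 55 sites, 2.86% (2.16 to 3.70%), against 82 of the 40754 other sites, 0.201% (0.160 to 0.2497%). Of the 386 tRNA genes on autosomes, 185 had any peak in both libraries and 137 a distal one. The highest was site 39 (chr5:149228981-149229300), with scores of 17.5 and 16.8, followed by site 63 with 15.05 and 15.2, site 66 with 15.9 and 13.1 and site 73 (chr7:35234761-35234980, 19373 bp from Lrp3) with 15.1 and 13.2. Of all 386, 55 (14.2%) lay in strong sites. By isotype these were 7 of 25 tRNA-Leu genes, 5 of 20 tRNA-Glu, 5 of 17 tRNA-Thr, 2 of 57 tRNA-Cys and 0 of 15 tRNA-Gln, counted over all genes of the isotype, whether or not they had a distal peak. The centre of the site lay a median of 13 bp upstream of the first base of the tRNA, with quartiles 28 bp upstream and 20.5 bp downstream. All 55 carried a footprint in both libraries, with a median of 4. On chromosome 11 lay 22 of the 55.

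A further 163 sites lay within 1 kb of a RefSeq transcript 5′ end although no GENCODE transcript began there, which with 11 of the sites over tRNA genes made 174, 9.04% (7.80 to 10.4%), against 4.495% (4.296 to 4.70%) of the other sites. Of the 163, 77 had the end of an mRNA there, 82 that of a long noncoding RNA without an mRNA, and 4 those of other transcripts. Site 15 (chr9:20878161-20878480), in a coding exon of Angptl6, lay 99 bp from such an end and scored 18.6 and 23.8. Site 36 (chr8:70865701-70865960), 10 bp from one and 2573 bp from the potassium channel gene Kcnn1, scored 16.0 and 20.6. The end fell inside the site in site 16 (chr6:117879481-117879720, scores 20.8 and 19.5), site 27 (chr15:85634441-85634860, 16.6 and 23.1), 52178 bp from the growth factor gene Wnt7b, and site 35 (chr12:108757981-108758220, 16.5 and 19.6), 34872 bp from Yy1. For these sites the word distal holds for the GENCODE annotation and not for RefSeq.

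After tRNA genes, RefSeq ends and CTCF matches were set aside in that order, 935 sites (48.6%, 46.3 to 50.9%) remained, and this remainder filled the top: 12 of the 12 highest, 38 of 50, 60 of 100 and 111 of 200. Its median score was 7.68 in replicate 1 and 6.46 in replicate 2, with medians of 58.9% G and C and 5 CpG. The 771 sites classed as CTCF had 8.12 and 5.49, 55.0% and 4. Beside the sites already named, the remainder held site 13 (chr2:30658501-30658720, scores 19.97 and 21.7, 21 CpG), site 18 within the chemokine receptor gene Cx3cr1 in exon sequence outside coding sequence (chr9:120011121-120011360, 21.2 and 18.7), and site 19, 14308 bp from the cyclin gene Ccne1 (chr7:38084881-38085240, 18.4 and 20.4).

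Some strong sites stood close together. The median distance to the next strong site was 96.4 kb, 336 of 1924 (17.5%) had one within 10 kb, and the closest centres were 220 bp apart. The densest 100 kb held 14 sites (chr11:69035961-69124360), among Aurkb, Ctc1, Borcs6 and Per1, of which 10 held tRNA genes, and site 12 in Per1 and site 66 are among the 14. Near Ptma and Tex44, chr1:86434461-86532640 held 10, none over a tRNA gene and 5 with a CTCF match, and these included sites 6, 17 and 20 of the 20 highest. Around Irf2bpl, chr12:86769101-86836920 held 9. Near the natural killer receptor genes Klrb1b and Klrb1c, chr6:128753941-128845560 held 8, as did chr11:120255121-120353900 near the actin gene Actg1 and Bahcc1.

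Over genes, 2337 of 20780 protein-coding autosomal genes (11.2%) had at least 1 strong site in the gene or within 20 kb, and 1202 (5.78%) had one of the remainder class. These shares are the background for the gene lists below, whose counts are descriptions with no test. The genes with most sites were partly long gene models: Gm20388 spans 4435 kb in the annotation and held 15, and Fgfr2 spans 2961 kb there and held 8. Among shorter genes, the mitotic kinase gene Aurkb (6.02 kb) had 9, the telomere protein gene Ctc1 (20.6 kb) 8, Borcs6 (1.86 kb) 6, and Per1 (14.7 kb), Bahcc1 (59.4 kb) and the G protein gene Gng7 (66.3 kb) 5 each. In Bahcc1 all 5 were of the remainder class, in Per1 2 of 5, in Ctc1 2 of 8, in Aurkb 1 of 9 and in Borcs6 0 of 6. Aurkb, Ctc1, Borcs6 and Per1 lie in or beside the dense stretch of chromosome 11 described above. Their surroundings of 20 kb overlap, so 1 site can count for more than 1 of these genes.

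Genes of glucocorticoid, circadian and stress responses had strong sites most often of the 12 lists, 9 of 14 matched genes (64.3%), and 8 (57.1%) had one of the remainder class. The lists were chosen with earlier results of these data known, so this rank among them is a description only. Their median length, 24.5 kb, was above the 17.6 kb of all genes, and 92.9% had some shared distal site against 67.9% of all genes. Per1 and Per2, which encode repressors of the clock, had 5 and 2, of which 2 each were of the remainder class. Per1 lies in the dense stretch of chromosome 11 with tRNA genes described above. The highest site of Per2 (chr1:91436401-91436600, in its own intron) scored 7.61 and 5.71. Zbtb16, a glucocorticoid-induced repressor gene of 182 kb, had 4, led by site 75 in its intron (chr9:48740261-48740420) with 13.6 and 15.1. The AP-1 subunit genes Junb, Fos and Jun had 3, 2 and 1, and site 64, 18519 bp from the start of Fos (chr12:85455161-85455580), scored 14.6 and 16.3 with 9 footprints in each library. Fkbp5, a cochaperone of the glucocorticoid receptor, had 2, the higher with the CTCF consensus and scores of 7.42 and 5.23.

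Of the 9 lists of lung cell types and factors, 7 were above the background of 11.2% and 2, AT1 cells and fibroblasts, below it. Smooth muscle and endothelial genes were long, with medians of 40.3 and 44.3 kb against 17.6 kb of all genes. Of them 100% and 80% had some shared distal site, against 67.9% of all genes. AT2 genes and epithelial factors, at 14.5 and 16.3 kb, were shorter than all genes, but 86.7% and 80% of them had some shared distal site. The AT1, airway, fibroblast, myeloid and lymphoid lists had longer medians than all genes, at 28.1, 22.4, 38.4, 21.1 and 20.4 kb. The part of length and of weaker sites in these counts was not tested. Of the smooth muscle and pericyte genes 6 of 15 had a strong site, 1 each at Actn1, Cnn1, Lmod1, Notch3, Pdgfrb and Tns1. The highest was the one in an intron of the adhesion gene Tns1 (chr1:74077461-74077660), with 10.0 and 5.82. Of the endothelial genes 6 of 20 had one, all 6 with a remainder site: the junction gene Pecam1 and the TGF-beta coreceptor gene Eng had 2 each, and Erg, Flt1, Sox18 and Vwf 1 each. The Pecam1 site (chr11:106678081-106678300, in its intron) scored 7.91 and 8.38. Erg, at 227 kb, and Flt1, at 164 kb, are long.

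Immune genes had strong sites at factor and receptor genes. Site 69 lay in a coding exon of Spi1, the gene of the myeloid factor PU.1 (chr2:91115161-91115320), and scored 18.7 and 11.6. It was classed as CTCF and lay 32851 bp from the start of Spi1. The nearest protein-coding start, at 2903 bp, was that of Mybpc3. Site 133, with the CTCF consensus, lay 15540 bp from the start of Cd4 (chr6:124903661-124903860) and scored 14.7 and 10.3. Its nearest protein-coding start, at 6290 bp, was that of Lag3. In all, 4 of 15 myeloid genes (Spi1, Cebpb, Mrc1, Fcgr3) and 5 of 14 lymphoid genes (among them Cd4, Ebf1, Gata3 and Lck) had a strong site. Of these, 2 myeloid and 4 lymphoid genes had one of the remainder class. The site in an intron of Gata3, a T helper and innate lymphoid factor (chr2:9879601-9879800), scored 9.49 and 11.2, and the one in an intron of the macrophage mannose receptor gene Mrc1, with the CTCF consensus, 11.0 and 6.93.

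The 2 lists of the alveolar epithelium hold 15 genes each, so their counts are small beside the background of 11.2% and were not tested. None of 15 AT1 cell genes had one, although all 15 had some shared distal site, and 2 of 15 AT2 and surfactant genes did (13.3%): Fasn, of fatty acid synthesis, near a site with the CTCF consensus (8.73 and 6.87), and the desaturase gene Scd1 with an NFY box in site 303 (9.602 and 9.93). Of airway genes 3 of 15 had one: Rfx2, a regulator of cilia, had 3, Dnaic1 had 1, and Scgb1a1, the club cell secretoglobin, had 1 with the CTCF consensus (6.31 and 6.81). Of epithelial factors 2 of 15 did: Nfib, where site 131 in its intron (chr4:82513201-82513440) scored 12.5 and 11.96, and Id2, where site 439 scored 8.25 and 9.92. Of fibroblast genes 2 of 20 did, Col1a1 (6.12 and 5.28) and Foxf1 (9.07 and 4.93). Lists of tissues other than lung had 1 of 15 for hepatocytes (Hnf4a) and 1 of 14 for neurons (Camk2a).

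**Figure D5:**
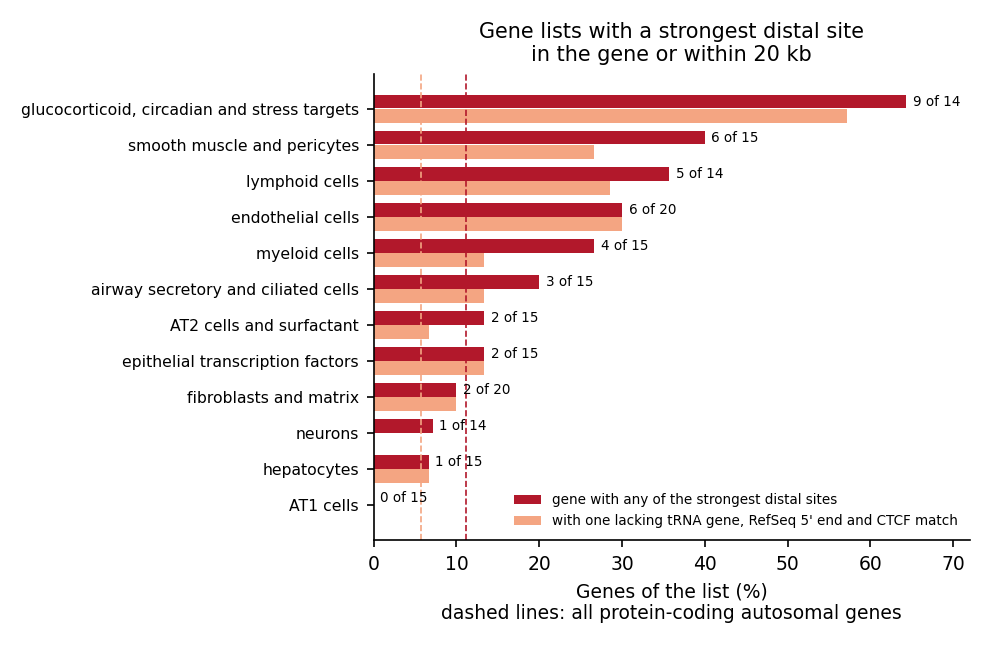
Share of the genes of each list with one of the strongest distal sites in the gene or within 20 kb (dark bars, counts beside them), and with one that has no tRNA gene, RefSeq 5′ end or CTCF match (light bars). Dashed lines are the shares over all protein-coding autosomal genes, 11.2% and 5.78%. The glucocorticoid, circadian and stress list is the highest at 9 of 14 and the AT1 list is at 0 of 15. The lists were chosen with earlier results of these data known.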

How the data were processed

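The authors' deposited files for each library, in mm10 per the file listings, hold peaks with a signal value (the peak score), runs of bases with a false discovery rate of the cutting (a p-value unit, at most 0.05) and footprints with the deposited constant p-value 0.01. The sources used here do not give the aligner, the callers, their thresholds or how the signal was scaled, and read depth is unknown. All deposited scores were whole multiples of 0.00707 (replicate 1) or 0.0110 (replicate 2), within 0.05 of a step. The peak file with fewer lines was used. Scores served to rank and describe peaks within a library.

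Transcripts came from GENCODE M21, tRNA genes, other transcript ends and the sequence from RefSeq GRCm38. Consensus sequences were read on both strands of the stretch up to 75 bp from the site's centre and of windows of the same length 1 kb to either side. CTCF has a 12 letter consensus, and its 20 bp matrix came from the other shared distal sites, with the score that 1% of side windows pass. Consensus sequences of 10 or more letters are given by name. Genes within 20 kb were counted. Intervals are exact binomial at 95%. No test was made: the design has 1 group. Members and lists were chosen with earlier results of these data known, and the classes after values were seen. Named were the 12 highest sites, the highest of each class and list, and the genes with most. A few sites and genes that these rules name are not reported here. Sequences are the highest of each kind up to 300 bp wide, with unrepeated central 50 bp, outside noncoding exon parts and chromosome 18. Python 3.11.15, numpy 2.4.6, scipy 1.17.1, pandas 2.3.3, matplotlib 3.10.9 and blastn 2.17.0 were used, and the functions were tested on simulated data.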

Additional observations from a re-analysis of the deposited data

How the results depend on the processing

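Of 69 recomputed values, 45 moved by less than 1.5 times (the count of sites) or stayed within the main 95% interval (shares), among them all 9 for footprints in both libraries. The count of 1924 sites was 352 with the top 1%, 4039 with the top 10% and 3264 with the larger peak file, and 2452 to 3031 from a single library. The CTCF consensus share of 19.5% was 14.5% in the top 1%, 21.5% in the top 10%, 17.1% with protein-coding 5′ ends only, 11.6% with the stricter consensus, and 16.3% without replicate 1 to 27.2% without replicate 2. The matrix share of 42.3% was 30.4%, 44.6% and 37.6% under the first 3 of these settings, 44.6% beyond 2500 bp from every 5′ end, 16.1% at the score that 0.2% of side windows pass, and 35.6% to 54.1% from single libraries. The intron share of 38.4% was 41.6% in the top 10%, 40.6% with the larger file and 35.8% beyond 2500 bp. The share between genes, 53.1%, was 50.4% in the top 10%, 57.9% beyond 2500 bp and 49.953% with protein-coding ends only. The repeat-masked share of 0.988% was 0.284% in the top 1%. The cause was not tested. Leaving out a library changes which peaks can enter, since the other library alone then sets the list. No paired analysis was possible because there is 1 group. Depth is unknown, so no limit from read counting could be given.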

Other observations

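RefSeq lists curated enhancers in the mouse assembly, and 29 of the 1924 strongest distal sites (1.51%, exact 95% interval 1.01 to 2.16%) overlapped one, against 230 of 40754 other shared distal sites (0.564%, 0.494 to 0.642%). Repeat-masked sequence was rarer at their centres, 0.988% (0.596 to 1.54%) against 3.08% (2.91 to 3.25%). By chromosome, the strongest sites were densest on chromosome 11, with 216 sites, 17.7 per 10 Mb and 6.55% of the shared distal sites there. Chromosome 3 had 73, 4.56 per 10 Mb and 3.47%. Of the 216, 22 held a tRNA gene.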
